A study of Mus musculus with 19 samples.

Results

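The 34 genes described here encode the ubiquitin ligases of muscle atrophy, the transcription factors that drive them, and proteins of the ubiquitin system, of autophagy and of the lysosome. They were chosen by name, and each was read through the brightest of the probe sets (groups of array probes for 1 transcript) that carry its symbol alone, by the mean of log2(signal + 16) over all 19 samples. Of the 34 genes, 32 had such a probe set and all 32 passed the filter on low values, out of 18193 genes with such a probe set and 11533 past the filter. Fbxo40 had no probe set with 1 symbol, and those of Bnip3l also name a pseudogene, so no value is given for either.

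RNA came from EDL, the extensor digitorum longus of the hind leg, which is made up mostly of fast fibres, and was hybridized to 1-colour Affymetrix arrays, 1 per sample. The 10 HSALR samples came from FVB mice, 19 weeks old, of the transgenic line labelled HSALR line 20 b, and the 9 wild-type samples from FVB mice of the same age. HSALR mice, used to model myotonic dystrophy, express in skeletal muscle a human actin transgene that holds an expanded CTG repeat. All HSALR samples belong to 1 transgenic line, so line and transgene cannot be told apart. The comparison of HSALR with wild type asked which transcripts differ in muscle that expresses the repeat. Nothing in the labels says that each sample was another animal. The p-values therefore reflect only the spread between these samples, part of which may be technical, and the number of arrays limits the precision.

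Muscle protein is broken down mainly by the ubiquitin-proteasome system and by autophagy. In the first, an E3 ligase such as atrogin-1 (Fbxo32) or MuRF1 (Trim63) marks proteins with ubiquitin for the proteasome. In the second, a membrane that carries ATG8-family proteins encloses cargo and fuses with the lysosome. FoxO transcription factors, which are held out of the nucleus by insulin and growth factor signalling through Akt, are known to switch on genes of both routes in fasted or denervated muscle.

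The median signal of an array lay between 39.7 and 71.9, and how the signals were scaled before deposit is not given in the sources used here. Results are given as deposited and, beside them, after quantile normalization, which gives every array the same distribution of values. The median log2 fold over all tested probe sets was 0.04 as deposited and -0.01 after quantile normalization. The 10 fast-fibre markers were all measured, with a summed signal of 115765 to 138639 in HSALR and 124775 to 143896 in wild type. None of them passed as deposited, and 2 fell after quantile normalization (8.39% of all tested genes fell there). The summed signal of 8 slow-fibre markers varied widely, from 3898 to 17561 in HSALR and from 3729 to 30122 in wild type. Their median log2 fold was -0.56 as deposited, and 0 of them passed in either scaling. HSALR replicates 9 and 10 stood apart. They were the most alike of all pairs of samples (Spearman correlation 0.978 across probe sets), and the summed signal of 15 macrophage and monocyte markers was 24524 and 28079 in them, against 4344 to 11956 in the other HSALR samples and 4947 to 8408 in wild type. The summed signal of the 11 fibroblast markers on the array was 80216 and 82302 in them, against 18564 to 43427 in the other HSALR samples and 22091 to 40378 in wild type. All 11 were tested, and 1 rose in each scaling. Of 7 fat cell markers 5 were on the array and 3 were tested, and 2 rose in each scaling. The summed signal of the 5 on the array was 5256 to 8992 in HSALR and 5616 to 7051 in wild type. Macrophage marker sums above the highest wild-type sum, 8408, were also seen in HSALR replicates 1, 2, 3, 6, 7 and 8 (9041, 9992, 10488, 8799, 8704 and 11956). Those of HSALR replicates 4 and 5 were not above it (7029 and 4344). Counts of calls and the values of several genes are given with and without HSALR replicates 9 and 10. Leaving them out keeps the higher macrophage marker sums of HSALR replicates 1, 2, 3, 6, 7 and 8. The group difference in these markers without them was not tested. In whole muscle, fewer cells of a type and less RNA per cell cannot be told apart.

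Most members differed little between HSALR and wild-type muscle. The deubiquitinase gene Uchl1 and the lysosomal membrane protein gene Lamp2 rose in HSALR and the F-box gene Fbxo31 fell (limma adjusted p of 0.05 as the threshold, Benjamini-Hochberg over all tested probe sets). These were 3 of 32 members, or 9.38%, against 5.42% of all tested genes as deposited (3.11% rose and 2.31% fell). After quantile normalization 11 of 32 members passed, or 34.4%, against 15.5% of all tested genes (7.08% rose and 8.39% fell). The 3 genes called as deposited were among the 11. With each array centred on its median instead, 6 of 32 members passed, against 13.4% of all tested genes (6.57% rose and 6.81% fell). After quantile normalization Foxo3 and Gabarapl1 joined those that rose, and Foxo4, Trim54, Fbxo21, Ulk1, Sqstm1 and Nbr1 joined Fbxo31 among those that fell. Without HSALR replicates 9 and 10, Fbxo31 and Uchl1 passed as deposited, 2 of 32 members against 453 of 11533 tested genes. After quantile normalization without them 4 of 32 passed (Fbxo31, Foxo4, Uchl1 and Lamp2), against 1366 of 11533. The quantile-normalized calls of Foxo3, Gabarapl1, Trim54, Fbxo21, Ulk1, Sqstm1 and Nbr1 were lost there. The median log2 fold of the members was 0.02 as deposited and -0.05 after quantile normalization, against 0.05 and -0.0037 over all tested genes. At an unadjusted p under 0.05 as deposited, 8 of 32 members were higher and 4 lower, against 13.8% and 7.47% of all tested genes. The median standard error of a member's log2 fold was 0.11 as deposited and 0.09 after quantile normalization.

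**Figure D1:**
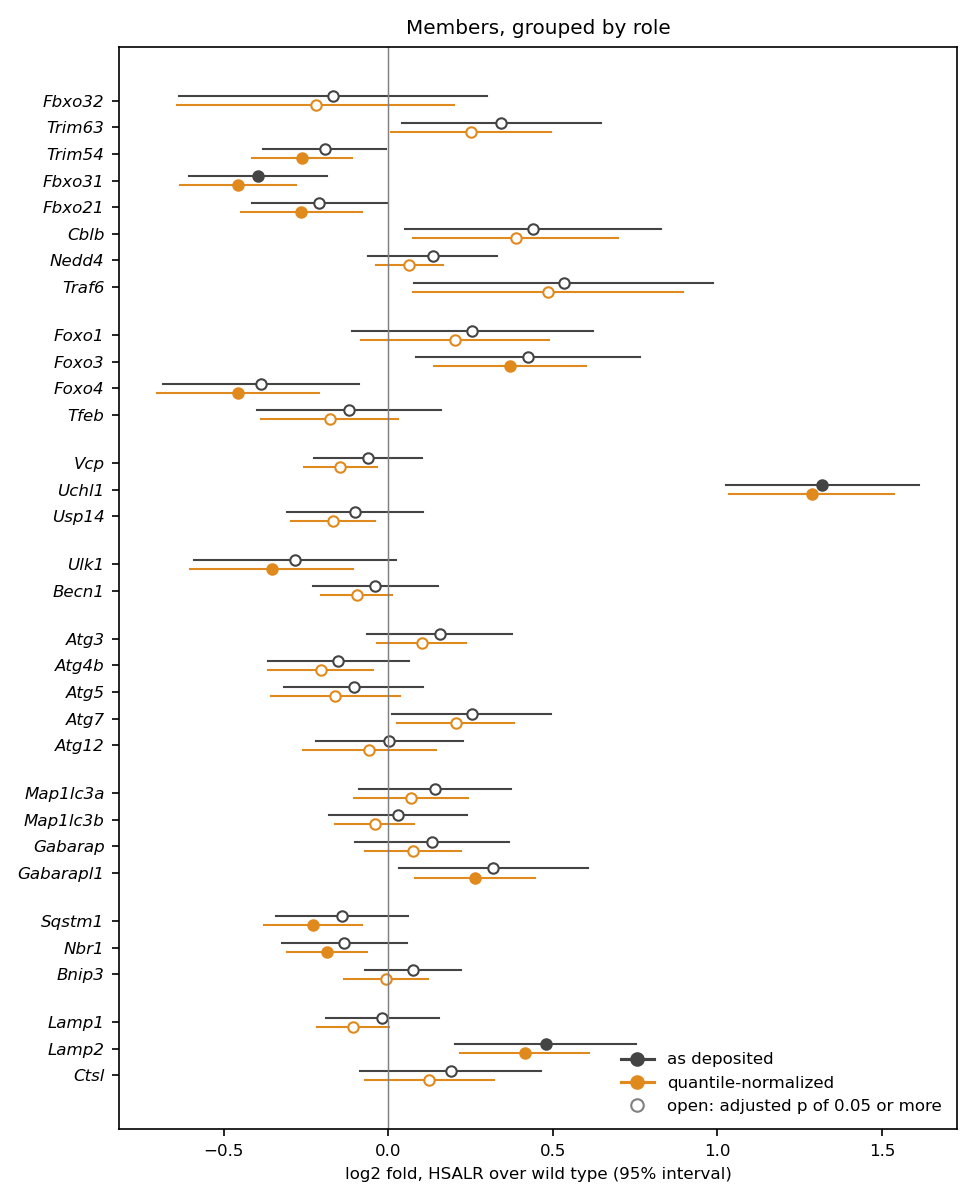
Log2 fold (x axis, HSALR over wild type) of the 32 measured members, grouped by role from ligases at the top to lysosomal genes at the bottom, with 95% intervals from limma; dark points are as deposited, orange points quantile-normalized, and open points had an adjusted p of 0.05 or more. Uchl1 lies apart at 1.32, Lamp2 and Fbxo31 are filled in both scalings, and the quantile-normalized points sit slightly to the left of the deposited ones.

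The region just before the transcription start was read for the members, as 250 bases upstream of each RefSeq start (build GRCm38.p6), and 26 members matched that table. Fbxo32, Foxo4, Usp14, Becn1, Atg12 and Map1lc3a had no window there and were not read. The windows of the 3 genes called as deposited are shown, with that of Trim63, the only one of the 26 with a match to the FoxO motif. Capitals mark every match, on either strand, to GTAAACA (FoxO), CACGTG (bound by TFEB and other E-box factors), CANNTG (any E-box, which includes CACGTG) or GGGCGG (GC box).
Uchl1, chr5:66675871-66676120, plus strand: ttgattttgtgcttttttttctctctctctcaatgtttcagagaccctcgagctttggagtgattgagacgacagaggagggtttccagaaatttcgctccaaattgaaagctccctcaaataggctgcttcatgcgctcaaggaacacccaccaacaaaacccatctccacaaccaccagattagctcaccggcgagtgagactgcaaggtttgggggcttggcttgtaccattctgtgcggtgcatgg
Lamp2, chrX:38456461-38456710, minus strand: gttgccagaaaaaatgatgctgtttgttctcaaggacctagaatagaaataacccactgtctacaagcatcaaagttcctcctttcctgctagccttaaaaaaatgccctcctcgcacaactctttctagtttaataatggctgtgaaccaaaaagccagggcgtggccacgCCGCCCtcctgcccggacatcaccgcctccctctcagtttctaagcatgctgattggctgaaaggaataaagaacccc
Fbxo31, chr8:121578807-121579056, minus strand: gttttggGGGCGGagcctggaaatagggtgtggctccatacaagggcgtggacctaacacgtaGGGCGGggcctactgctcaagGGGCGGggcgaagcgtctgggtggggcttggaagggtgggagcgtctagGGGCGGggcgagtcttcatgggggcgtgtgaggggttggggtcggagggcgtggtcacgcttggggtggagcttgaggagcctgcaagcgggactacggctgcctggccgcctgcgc
Trim63, chr4:134314870-134315119, plus strand: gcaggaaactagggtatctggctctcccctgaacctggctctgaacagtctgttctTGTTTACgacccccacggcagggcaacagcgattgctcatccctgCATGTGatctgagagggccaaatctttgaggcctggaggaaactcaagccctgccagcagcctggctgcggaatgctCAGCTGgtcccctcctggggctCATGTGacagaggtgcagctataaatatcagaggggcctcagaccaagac
The window of Uchl1 held none of the 4 motifs, that of Lamp2 held 1 GC box on the opposite strand and that of Fbxo31 held 4. In Trim63 the FoxO motif lay on the opposite strand, 194 bases upstream of the start, with 3 E-boxes nearer to it. GTAAACA was found in 1 of 26 members and in 3.17% of all 32851 RefSeq windows of this length. CACGTG was found in 6 members (Atg3, Atg5, Atg7, Bnip3, Ctsl and Lamp1) and in 6.02% of windows. CANNTG was found in 16 members and in 66.2% of windows, and GGGCGG in 17 members and in 32.7% of windows. A member was counted when any of its windows matched, and Nbr1, Nedd4 and Tfeb had more than 1, while the shares are of single windows. A match is a description of the letters and was not tested as a binding site.

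Among the ubiquitin ligases and their adaptors, 8 of 9 were measured. As deposited 0 rose and 1 fell. The unadjusted p was under 0.05 for 3 that were higher and 3 that were lower, against 13.8% and 7.47% of all tested genes. Quantile normalization gave 0 that rose and 3 that fell. Fbxo31, the F-box subunit of a ligase known for marking cyclin D1 for breakdown, had a lowest, median and highest signal of 442, 693 and 817 in HSALR samples, against 713, 884 and 995 in wild-type samples. The groups overlapped slightly: 7 of 10 HSALR samples lay below every wild-type sample. Its mean was 664 ± 107 in HSALR (SD, n = 10) and 870 ± 82.6 in wild type (SD, n = 9), a log2 fold of -0.39 ± 0.10 (SE, adjusted p = 0.0230). After quantile normalization its log2 fold was -0.46 (adjusted p = 0.00113) and 9 of 10 HSALR samples lay below all wild-type samples. A second, dimmer probe set of Fbxo31 had a log2 fold of 0.07 ± 0.11 (adjusted p = 0.769), and the difference between the probe sets missed the threshold over 4782 genes (limma diffSplice adjusted p = 0.0926). The call of Fbxo31 as deposited held in 18 of 19 fits without 1 sample (log2 folds of -0.43 to -0.33). It was lost without wild-type replicate 2 (log2 fold -0.37, adjusted p = 0.0513).

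The ligases most used as markers of atrophy did not pass. Fbxo32, which encodes atrogin-1, had signals of 610, 1396 and 2459 (lowest, median and highest) in HSALR samples, against 791, 1439 and 2933 in wild-type samples. The ranges overlapped over most of their length, with 1 HSALR sample below all wild-type samples and 1 wild-type sample above all HSALR samples. Its log2 fold was -0.17 ± 0.23 with a 95% interval of -0.64 to 0.30 (adjusted p = 0.723), and -0.22 after quantile normalization (adjusted p = 0.500). The dimmer probe sets of Fbxo32 had log2 folds of -0.45 ± 0.26 and -0.03 ± 0.17, and neither passed. Trim63, which encodes MuRF1, a ligase for thick filament proteins, had signals of 3683, 6344 and 7816 in HSALR samples, against 3797, 4434 and 7758 in wild-type samples. Wild-type replicate 9 held the highest wild-type value of both Fbxo32 and Trim63. The log2 fold of Trim63 was 0.34 ± 0.15 with a 95% interval of 0.04 to 0.65 (adjusted p = 0.182), and 0.25 after quantile normalization (adjusted p = 0.156). It passed with arrays weighted by quality (log2 fold 0.44, adjusted p = 0.0327) and without HSALR replicate 5 (0.42, adjusted p = 0.0484).

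Trim54, which encodes MuRF3, a related ligase of the sarcomere, had signals of 1704, 2370 and 2870 in HSALR samples, against 2419, 2594 and 3123 in wild-type samples. In 6 of 10 HSALR samples the signal was below every wild-type sample. Its log2 fold was -0.19 ± 0.09 as deposited (adjusted p = 0.225) and -0.26 ± 0.07 after quantile normalization, where it fell (adjusted p = 0.0194). Fbxo21, an F-box protein, had signals of 118, 139 and 201 in HSALR samples, against 131, 167 and 205 in wild-type samples. The groups overlapped over most of their range. Its log2 fold was -0.21 ± 0.10 as deposited (adjusted p = 0.232) and -0.26 after quantile normalization, where it fell (0.0479). A dimmer probe set of Fbxo21 had a log2 fold of 0.06 ± 0.14.

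The other 3 ligases had positive log2 folds that did not pass in either scaling. Cblb, a ligase for the insulin receptor substrate in unloaded muscle, had a log2 fold of 0.44 ± 0.19 (adjusted p = 0.184) and signals of 694 and 676 in HSALR replicates 9 and 10. Without these its log2 fold was 0.23 (adjusted p = 0.499). Traf6, a ligase of inflammatory signalling, had a log2 fold of 0.53 ± 0.22 (adjusted p = 0.168), and 0.40 without HSALR replicates 9 and 10. Nedd4, a ligase with a HECT domain, had a log2 fold of 0.14 ± 0.09 with a 95% interval of -0.06 to 0.33.

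**Figure D2:**
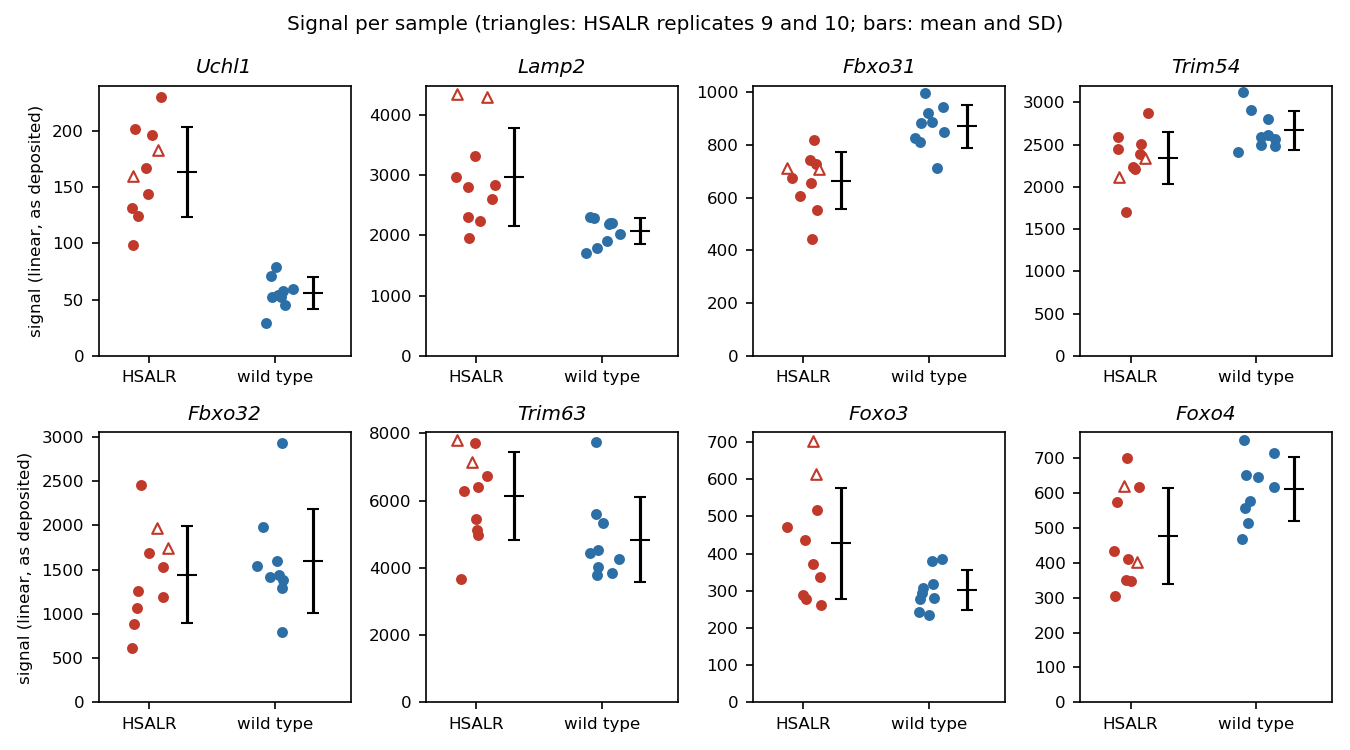
Signal per sample as deposited (linear y axis from 0) for 8 members, with HSALR left and wild type right in each panel, bars at the mean and SD, and open triangles for HSALR replicates 9 and 10. The groups are fully separate only for Uchl1, the HSALR triangles are the highest points for Lamp2 and Foxo3, and the ranges of Fbxo32 overlap over most of their length.

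Of the 4 transcription factors none passed as deposited, while at an unadjusted p under 0.05 Foxo3 was higher and Foxo4 lower (13.8% and 7.47% of all tested genes). After quantile normalization Foxo3 rose and Foxo4 fell. Foxo3, the FoxO member best known for driving ligase and autophagy genes in muscle, had signals of 262, 405 and 702 in HSALR samples, against 235, 295 and 386 in wild-type samples. In 5 of 10 HSALR samples the signal was above every wild-type sample, and HSALR replicates 9 and 10 were the highest at 702 and 614. The log2 fold of Foxo3 was 0.43 ± 0.16 as deposited (adjusted p = 0.139) and 0.37 ± 0.11 when quantile-normalized (0.0287). Without HSALR replicates 9 and 10 it was 0.26 as deposited (adjusted p = 0.395), and 0.26 when quantile-normalized as well (0.0711). A dimmer probe set of Foxo3 had a log2 fold of 0.34 ± 0.16.

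Foxo4, another FoxO factor, had signals of 304, 423 and 699 in HSALR samples, against 469, 618 and 750 in wild-type samples. In 6 of 10 HSALR samples the signal was below every wild-type sample. Its log2 fold was -0.39 ± 0.14 as deposited (adjusted p = 0.124) and -0.46 ± 0.12 when quantile-normalized (0.0132). Without HSALR replicates 9 and 10 it also fell after quantile normalization (log2 fold -0.43, adjusted p = 0.0290), and its dimmer probe set had a log2 fold of -0.39 ± 0.20. Foxo1 had signals of 315, 584 and 912 in HSALR samples, against 360, 431 and 638 in wild-type samples. Its highest values, 912 and 911, were those of HSALR replicates 9 and 10. The log2 fold of Foxo1 was 0.26 ± 0.18 (adjusted p = 0.437), and 0.07 without those samples. Tfeb, which drives lysosomal genes, had a log2 fold of -0.12 ± 0.14 with a 95% interval of -0.40 to 0.16.

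Among the deubiquitinases and the p97 ATPase, Uchl1 rose and the other 2 did not pass. Uchl1, a ubiquitin C-terminal hydrolase that is abundant in neurons, had signals of 98.6, 163 and 230 in HSALR samples, against 29.4, 54.2 and 79.2 in wild-type samples. It was the only member whose groups did not overlap as deposited, which held for 0.728% of all tested genes. Its mean signal was 164 ± 40.1 in HSALR (SD, n = 10) and 55.7 ± 14.3 in wild type (SD, n = 9), a ratio of 2.94. The log2 fold was 1.32 ± 0.14 (SE, 95% interval 1.03 to 1.61, adjusted p = 3.64e-06), and 1.29 after quantile normalization. The scale of log2(signal + 16) understates the change of a dim gene: the log2 fold of Uchl1 was 1.54 with 1 in place of 16, and 0.92 with 64. Uchl1 was called in 19 of 19 fits without 1 sample (log2 folds of 1.24 to 1.39), and its log2 fold was 1.30 without HSALR replicates 9 and 10. Of the nerve and Schwann cell markers 6 of 9 were on the array and 3 were bright enough to test, and 0 of these passed. The summed signal of all 6 on the array was 1291 to 4980 in HSALR, up to 2493 without replicates 9 and 10, against 1484 to 2839 in wild type. The neurofilament genes Nefl and Nefm, which mark axons, were below the filter, with log2 folds of 0.09 and 0.11 in a fit without it (adjusted p = 0.814 and 0.746).

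Vcp, the p97 ATPase that extracts ubiquitin-tagged proteins, had a log2 fold of -0.06 ± 0.08 as deposited and -0.15 after quantile normalization (adjusted p = 0.715 and 0.0713). Usp14, a deubiquitinase of the proteasome, had a log2 fold of -0.10 ± 0.10 at its brightest probe set (adjusted p = 0.617). One of its 4 probe sets behaved differently. It fell, with a log2 fold of -0.74 ± 0.13 (adjusted p = 0.000895), while the others had log2 folds of -0.22 ± 0.10 and 0.06 ± 0.11. Usp14 was the only one of 20 members with several tested probe sets in which the difference between probe sets passed (limma diffSplice, adjusted p = 0.00144). A second Usp14 probe set, the one at -0.22, also fell after quantile normalization (-0.28, adjusted p = 0.0283). By the suffix of its name, the probe set at -0.74 is of the type whose probes can match other transcripts. The brightest probe sets of 4 members, Foxo1, Becn1, Map1lc3a and Gabarapl1, and that of Lamp2 at 0.71 among its dimmer ones, carry such suffixes too.

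The genes that start autophagy gave no call as deposited. Ulk1, the kinase that sets it off, had signals of 257, 517 and 655 in HSALR samples, against 447, 612 and 769 in wild-type samples. The groups overlapped, with 3 of 10 HSALR samples below every wild-type sample. Its log2 fold was -0.28 ± 0.15 as deposited (adjusted p = 0.284) and -0.35 ± 0.12 after quantile normalization, where it just passed (0.0497). The dimmer probe set of Ulk1 had a log2 fold of -0.55 ± 0.22 (adjusted p = 0.161). Becn1, a subunit of the lipid kinase complex of early autophagy, had a log2 fold of -0.04 ± 0.09. A dimmer probe set of Becn1 had -0.23 ± 0.10 as deposited (adjusted p = 0.199) and -0.28 after quantile normalization, where it fell (0.00202).

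None of the 5 genes that attach ATG8 proteins to the membrane passed as deposited or after quantile normalization. Atg7, the E1-like enzyme of this step, had a log2 fold of 0.25 ± 0.12 (adjusted p = 0.220), and it passed with arrays weighted by quality (0.38, adjusted p = 0.0143). Atg3, its E2-like partner, had a log2 fold of 0.16 ± 0.11. Atg4b, a protease that trims ATG8 proteins, had a log2 fold of -0.15 ± 0.10. Atg5 and Atg12, which form a conjugate, had log2 folds of -0.10 ± 0.10 and 0.0036 ± 0.11, and the sign of Atg12 turned after quantile normalization (-0.06). The 95% interval of Atg12 was -0.22 to 0.23 as deposited.

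Of the 4 ATG8-family genes, Gabarapl1 rose after quantile normalization, and none passed as deposited. Gabarapl1 had signals of 663, 952 and 1370 in HSALR samples, against 606, 725 and 984 in wild-type samples. Of the 10 HSALR samples, 3 were above the whole wild-type range. The log2 fold was 0.32 ± 0.14 as deposited (adjusted p = 0.192) and 0.26 ± 0.09 after quantile normalization (0.0463), and 0.20 without HSALR replicates 9 and 10 (0.489 as deposited, and 0.135 when quantile-normalized as well). Map1lc3b, which encodes LC3B, the usual marker of autophagosomes, had a log2 fold of 0.03 ± 0.10 as deposited, with a 95% interval of -0.18 to 0.24, and of -0.04 after quantile normalization. A dimmer probe set of Map1lc3b had -0.11 ± 0.10 as deposited (adjusted p = 0.543) and -0.18 after quantile normalization, where it fell (0.0320) and 7 of 10 HSALR samples lay below all wild-type samples. Map1lc3a and Gabarap had log2 folds of 0.14 ± 0.11 and 0.13 ± 0.11, and neither passed. The highest Gabarap signals, 2964 and 3222, were those of HSALR replicates 9 and 10, and without them its log2 fold was 0.02. Fbxo31 and Map1lc3b lie on opposite strands of chromosome 8 with their starts 11.6 kb apart in GRCm38.p6.

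Among the autophagy receptors, which tie cargo to ATG8 proteins, Sqstm1 and Nbr1 fell after quantile normalization and none passed as deposited. Sqstm1, which encodes p62, had signals of 2817, 3464 and 4584 in HSALR samples, against 3298, 3675 and 4821 in wild-type samples. The log2 fold of Sqstm1 was -0.14 ± 0.10 as deposited (adjusted p = 0.438) and -0.23 ± 0.07 after quantile normalization (0.0370). Nbr1, a receptor that binds ubiquitin like p62, had signals of 888, 1210 and 1310 in HSALR samples, against 1067, 1298 and 1442 in wild-type samples. Both genes overlapped between groups over most of their range. The log2 fold of Nbr1 was -0.13 ± 0.09 as deposited (adjusted p = 0.431) and -0.19 ± 0.06 after quantile normalization (0.0363). A dimmer probe set of Nbr1 had a log2 fold of 0.07 ± 0.16. Bnip3, a mitophagy receptor, had a log2 fold of 0.08 ± 0.07 as deposited and -0.01 after quantile normalization.

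Of the 3 lysosomal genes, Lamp2 rose, and Lamp1 and Ctsl did not pass. Lamp2, a membrane protein needed for the fusion of autophagosomes with lysosomes and lost in Danon disease, had signals of 1965, 2825 and 4351 in HSALR samples, against 1713, 2195 and 2305 in wild-type samples. In 8 of 10 HSALR samples the signal was above every wild-type sample as deposited, and in all 10 after quantile normalization, where Lamp2 and Uchl1 were the 2 members whose groups did not overlap (1.99% of all tested genes). Its mean signal was 2969 ± 813 in HSALR (SD, n = 10) and 2071 ± 220.2 in wild type (SD, n = 9). The log2 fold was 0.48 ± 0.13 as deposited (adjusted p = 0.0356) and 0.42 ± 0.09 after quantile normalization (0.00562). The other 3 probe sets of Lamp2 had log2 folds of 0.71 ± 0.17, 0.43 ± 0.17 and 0.32 ± 0.20, and the first of these also rose (adjusted p = 0.0173). The one at 0.43 rose after quantile normalization (0.38, adjusted p = 0.0450).

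HSALR replicates 9 and 10 held the highest Lamp2 signals, 4297 and 4351, and the highest macrophage and fibroblast marker sums. Without both, the log2 fold of Lamp2 was 0.33 as deposited, which missed the threshold (adjusted p = 0.102), and 0.31 when quantile-normalized as well, which passed (0.00861). Leaving out 1 sample at a time kept its call in 10 of 19 fits, with log2 folds of 0.41 to 0.54. The call was lost without wild-type replicate 2, 3, 5 or 7 or HSALR replicate 2, 3, 8, 9 or 10 (adjusted p of 0.0542 to 0.0762), and in a fit without the filter (0.0699). Of the 15 macrophage and monocyte markers, all on the array and none at 0 in any sample, 14 were tested. Of these 2 rose as deposited and 5 after quantile normalization, with 0 lower, against 3.11% and 7.08% of all tested genes that rose. At a limma unadjusted p under 0.05 as deposited, 12 of the 14 were higher and 0 lower, against 13.8% and 7.47% of all tested genes. The part of macrophage or fibroblast RNA in the rise of Lamp2 was not tested, with or without HSALR replicates 9 and 10. Ctsl, a lysosomal protease gene that rises in many forms of atrophy, had signals of 1831, 2296 and 4173 in HSALR samples, against 1983, 2239 and 2378 in wild-type samples. Its signals in HSALR replicates 9 and 10 were 3803 and 4173, and the other HSALR samples reached 2885. The log2 fold of Ctsl was 0.19 ± 0.13 (adjusted p = 0.440), and 0.02 without those samples. Lamp1 had a log2 fold of -0.02 ± 0.08 as deposited, with a 95% interval of -0.19 to 0.15, and -0.11 after quantile normalization (adjusted p = 0.173).

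**Figure D3:**
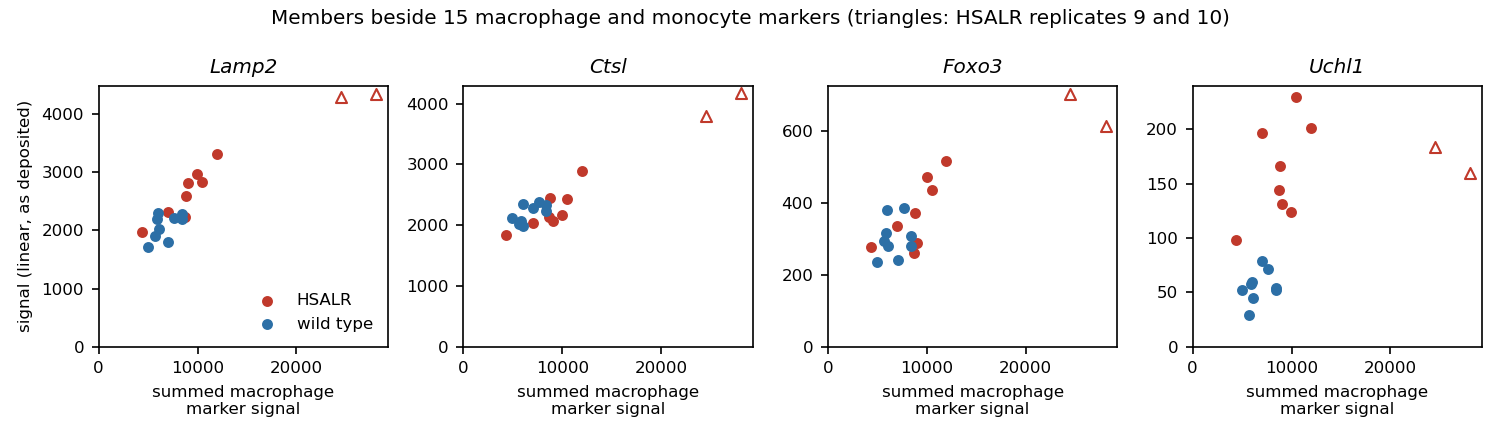
Signal of Lamp2, Ctsl, Foxo3 and Uchl1 (y axes, linear, as deposited) against the summed signal of the 15 macrophage and monocyte markers (x axis, linear, as deposited), 1 point per sample, with triangles for HSALR replicates 9 and 10. The triangles lie far to the right in every panel and are the highest points for Lamp2, Ctsl and Foxo3, while for Uchl1 they lie within the range of the other HSALR samples.

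Probe sets of the same gene were set beside each other to see how far a member's value rests on the chosen one. The 32 members have 80 probe sets with their symbol alone, of which 64 were tested. Of the 32 tested probe sets other than the brightest, 2 were called as deposited, those of Lamp2 and Usp14 given above, against 5.06% of all tested probe sets. Among the 20 members with several tested probe sets, 8 had the same sign at every one. All probe sets of Lamp2, Foxo1 and Foxo3 had positive log2 folds and all of Fbxo32, Foxo4 and Ulk1 negative ones, while those of Fbxo31, Usp14 and Becn1 were mixed.

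**Figure D4:**
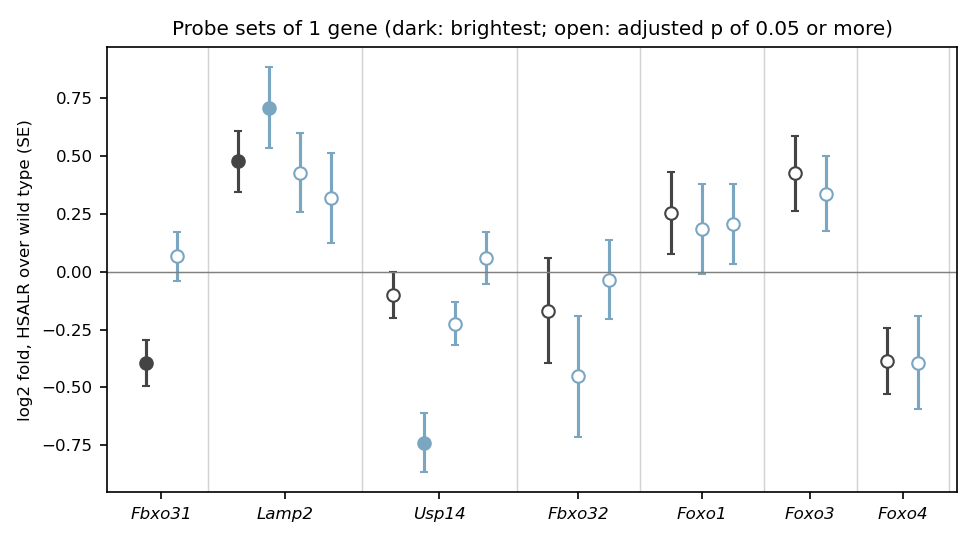
Log2 fold with its SE (y axis, HSALR over wild type, as deposited) for each tested probe set of 7 members; dark points are the brightest probe set, blue points the others, and open points had an adjusted p of 0.05 or more. The 4 Lamp2 probe sets are all above 0, 1 Usp14 probe set lies at -0.74 apart from the other 3, and the 2 of Fbxo31 lie on either side of 0.

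Values of most single genes varied more among HSALR than among wild-type samples. Fewer members showed this after quantile normalization, and fewest with HSALR replicates 9 and 10 left out as well. As deposited the SD of log2 values was larger in HSALR in 29 of 32 members, against 83.7% of all tested genes. Without HSALR replicates 9 and 10 it was also larger in 29 of 32 as deposited, against 81.9%. After quantile normalization it was larger in 21 of 32 members, against 73.7%, and without HSALR replicates 9 and 10 in 17 of 32, against 63.8%. The median SD over the members after quantile normalization was 0.20 in HSALR and 0.14 in wild type.

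**Figure D5:**
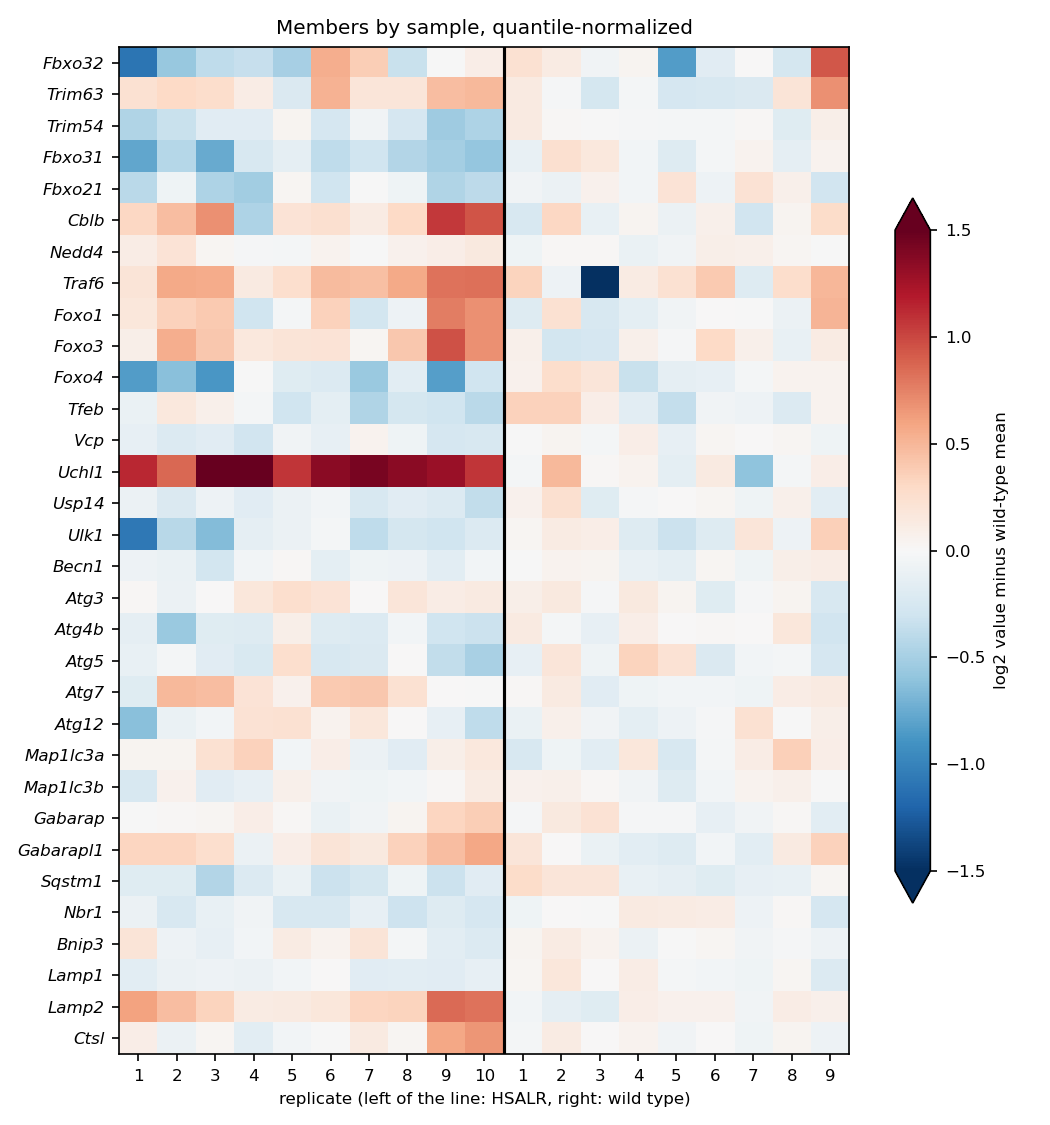
Quantile-normalized log2 value of each measured member (rows) in each sample (columns, HSALR replicates 1 to 10 left of the line and wild-type replicates 1 to 9 right of it) minus the wild-type mean; red is higher and blue lower, and colours stop at 1.5 in either direction. Uchl1 is red in all 10 HSALR columns, Fbxo31 is blue in all 10, and Cblb, Foxo1, Foxo3, Lamp2 and Ctsl are darkest red in HSALR replicates 9 and 10.

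FoxO factors and genes known as their targets were compared across samples within each group, in 17 pairs and 34 relations, on quantile-normalized values. None passed by Pearson's r and 1 passed by Spearman's rho after adjustment over all 34. That pair was Foxo3 and Bnip3 in HSALR, which ran in opposite directions (rho = -0.90, permutation p = 0.0009, adjusted p = 0.0306; r = -0.84, permutation p = 0.00211, adjusted p = 0.0717; n = 10). Its r was -0.82 without HSALR replicates 9 and 10, the 2 samples farthest in Foxo3, but 0.23 on values as deposited. Foxo1 and Gabarapl1 had an r of 0.81 in HSALR (permutation adjusted p = 0.0784), and 0.61 without HSALR replicates 9 and 10. Fbxo32 and Trim63 had an r of 0.47 in HSALR and 0.77 in wild type (permutation adjusted p of 0.322 and 0.138). The wild-type value was 0.14 without the 2 samples farthest in Fbxo32.

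Other genes of the same pathways were counted from 6 lists. Of 179 genes listed, 157 were tested. As deposited 10 rose and 3 fell, against 3.11% and 2.31% of all tested genes. Once the arrays were quantile-normalized 16 rose and 17 fell, against 7.08% and 8.39% of all tested genes. The same shares of all tested genes stand beside the counts of each of the 6 lists. Their median log2 fold was 0.05 as deposited and -0.0082 after quantile normalization. Among 24 regulators of FoxO, Pdpk1, the kinase that activates Akt, was the only one to rise (log2 fold 0.47 ± 0.10, adjusted p = 0.00447), and 1 rose and 4 fell after quantile normalization. Of 30 other ubiquitin ligases and adaptors, Rnf115, a RING ligase, rose (0.77 ± 0.12, adjusted p = 0.000252). So did Klhl41, a sarcomeric adaptor of the cullin 3 ligase (0.36 ± 0.09, adjusted p = 0.0183). After quantile normalization 3 of these 30 rose and 3 fell. Of 25 genes for E2 enzymes, other deubiquitinases and cofactors, Ube2d1, an E2 enzyme, fell (-0.43 ± 0.12, adjusted p = 0.0397), with 1 that rose and 3 that fell after quantile normalization.

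Among 34 other autophagy genes, 2 rose and 1 fell as deposited, and 2 rose and 4 fell after quantile normalization. Uvrag, a partner of Becn1 in the lipid kinase complex, rose (log2 fold 0.54 ± 0.11, adjusted p = 0.00444), with 8 of 10 HSALR samples above every wild-type sample. Atg9a, the membrane-spanning protein of early autophagosomes, fell (-0.49 ± 0.11, adjusted p = 0.00824), with 8 of 10 HSALR samples below every wild-type sample. Hspb8, a small heat shock protein of chaperone-assisted autophagy, rose (0.36 ± 0.10, adjusted p = 0.0456). Of 26 lysosomal genes, Ctsz, a cathepsin, rose as deposited (0.58 ± 0.16, adjusted p = 0.0348), and 5 rose and 2 fell after quantile normalization. Their median log2 fold was 0.18 as deposited and 0.13 after quantile normalization, and at an unadjusted p under 0.05 the list held 9 that were higher and 1 that was lower, against 13.8% and 7.47% of all tested genes. Macrophages express many of these lysosomal genes. The part of the macrophage and fibroblast marker sums in these counts was not tested, whether in HSALR replicates 9 and 10 or in the other HSALR samples. Of 18 other genes described in atrophying muscle, 4 rose (Sln, Tnfrsf12a, Cdkn1a and, outside the rule for named genes, Myog) and 1 fell (Igfbp5), the same counts in both scalings. Of all tested genes 3.11% rose and 2.31% fell as deposited, and 7.08% and 8.39% after quantile normalization.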

How the data were processed

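The deposited files hold 1 linear signal intensity for each of 45101 probe sets. Per the submitters' processing notes, the tool used was GCOS 1.4, with no role stated. How the signals were computed, scaled and filtered there is not given in the sources used here. Signals were used as log2(value + 16), so folds of dim genes are understated. After removal of 64 control probe sets, the 22519 with a mean log2 value over the 19 samples at or above the median (6.09) were tested; quantile normalization and centring used these. Symbols came from the platform annotation, updated through the Entrez identifier for 34741 of the 34945 probe sets with 1 symbol; 932 had several and 9160 are unnamed here. The annotation gives no coordinates, so those of the upstream windows are from RefSeq.

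HSALR (n = 10) and wild type (n = 9) were compared with lmFit and eBayes of limma 3.58.1 (R 4.3.3; 2-sided, Benjamini-Hochberg, false discovery rate 0.05); errors of log2 folds are SE from this fit. Probe sets of 1 gene were compared with diffSplice. Correlations used scipy 1.17.1 in Python 3.11.15, with an exact permutation p for 9 samples and 100000 resamples for 10. Figures used matplotlib 3.10.9. The fit was tested on simulated data.

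The members, lists and settings were chosen with earlier results of these data known. All members are named, and of each list of related genes up to 4 past the threshold as deposited, by smallest p. Alternatives were pseudocounts of 1 and 64, other filters, quantile normalization or centring of arrays, a replicate block, array weights, an intensity trend, the 3'/5' ratio of control probe sets as a covariate, and fits without each sample or without HSALR replicates 9 and 10. The fit with a replicate block left out HSALR replicate 10, as no wild-type sample has that number.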

Additional observations from a re-analysis of the deposited data

Results flagged for a closer look

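Each member was examined in each group for 1 sample far from the rest, 64 groups in all, and chance sets apart about 1 in 20 groups. Traf6 in wild-type replicate 3 had a log2 value of 5.02, and the nearest wild-type sample had 6.26. That gap took up 0.571 of the range of the 9 wild-type samples. In a fit without this sample the log2 fold of Traf6 was 0.34, the lowest of its fits without 1 sample, against 0.53 with it, and it passed in neither. Atg12 in HSALR replicate 1 had a log2 value of 7.53, and the nearest HSALR sample had 8.17, a gap of 0.600 of the range of the 10 HSALR samples. Without it the log2 fold of Atg12 was 0.08, the highest of its fits without 1 sample, and it did not pass.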

How the results depend on the processing

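The number of members past the threshold, 3 as deposited, was 11 after quantile normalization, 6 with arrays centred on their median and 7 with array weights. It was 1 with a replicate block, a fit that also left out HSALR replicate 10, and 1 to 4 in fits without 1 sample (1 without wild-type replicate 2). Of the 11 with quantile normalization 4 rose and 7 fell, and of the 7 with array weights, Atg7 among them, 6 rose and 1 fell. Among all tested genes the count of 625 became 1785, 1543, 1563 and 401 in those settings, 1247 with the 3'/5' covariate, 1366 without HSALR replicates 9 and 10 with quantile normalization, and 470 to 1122 without 1 sample (1122 without HSALR replicate 5). With quantile normalization 817 rose and 968 fell, with array weights 1250 rose and 313 fell, and with the covariate 982 rose and 265 fell. The related genes' count of 13 became 33 with quantile normalization, 28 with centring, 30 with array weights, 21 with the covariate, 22 without HSALR replicates 9 and 10 with quantile normalization, and 9 to 20 without 1 sample (20 without HSALR replicate 5). By Pearson's r, 7 correlations passed on values as deposited, against 0. Uchl1 was called in every setting in which it was tested; it is not among the 11260 brightest probe sets, the strictest filter. The call of Lamp2 was lost without a filter (adjusted p = 0.0699), with the replicate block (0.0793) and without HSALR replicates 9 and 10 (0.102), and that of Fbxo31 with the replicate block (0.0809). With HSALR replicate 10 left out but no block, Lamp2 also missed the threshold (limma adjusted p = 0.0613) and Fbxo31 passed (0.0286). Foxo3 passed with quantile normalization, centring, array weights and the covariate. Across settings, signs turned for 5 members with log2 folds of -0.12 to 0.08 as deposited. Atg12 had log2 folds of -0.057 with quantile normalization, -0.050 with centring, -0.076 with the covariate, and -0.0039 and -0.0089 without HSALR replicates 9 and 10 (as deposited and quantile-normalized). Map1lc3b had -0.041 with quantile normalization, -0.023 with centring, and -0.041 and -0.0697 in the same 2 fits without HSALR replicates 9 and 10. It had -0.010 with the replicate block, and the same without HSALR replicate 10 and no block. Bnip3 had -0.0077 with quantile normalization, and with array weights Tfeb had 0.045 and Lamp1 0.015. Without 1 sample the log2 folds ran from -0.035 to 0.082 for Atg12, -0.010 to 0.080 for Map1lc3b and -0.041 to 0.012 for Lamp1. Other probe sets had the opposite sign at 0.066 (Fbxo31), 0.058 (Fbxo21), -0.015 and -0.0022 (Nedd4), 0.086 (Vcp), 0.059 (Usp14), 0.13 (Becn1), 0.21 (Atg4b), 0.17 and 0.13 (Atg5), -0.36 (Atg12), -0.041 (Map1lc3a), -0.0030 and -0.11 (Map1lc3b) and 0.069 (Nbr1). The cause of these changes was not tested. The replicate numbers did not pair the samples (correlations of same-numbered samples -0.24 to 0.13), so a call lost under the block is not read as a weaker effect. Signals of 13979 to 17163 were the highest of each array, and probe sets near the filter give only compressed folds.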
